A study of Mus musculus with 3 samples.

Results

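Enterochromaffin cells were read out of 3 single-cell RNA libraries of mouse small-intestinal epithelium, and 698 of 39235 kept cells met the rule for them. A cell barcode was kept when it had at least 400 detected genes and at most 20% of its UMIs (unique molecular identifiers, which count captured RNA molecules) from mitochondrial genes. A kept cell was read as endocrine when its UMIs of Chga and Chgb, the chromogranins of secretory granules, summed to at least 5. UMIs were then summed over Tph1 and Tac1, over Cck, Gip, Ghrl and Sst, and over Gcg, Pyy and Nts. A cell was an enterochromaffin cell when its Tph1 and Tac1 sum was the highest of the 3 and at least 2, and ties were left out. The members were thus chosen by the measured UMIs of these 11 genes. WT had 167 such cells, LApc 307 and LApcL 224. The same rule gave 653 cells led by Cck, Gip, Ghrl or Sst (229, 265 and 159) and 205 cells led by Gcg, Pyy or Nts (95, 62 and 48), which served as the comparison. Levels of those genes are given below as a description only.

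All cells were EpCAM+ cells of C57BL/6 mice aged 7 to 8 weeks at the first of 2 tamoxifen doses of 2 mg. WT was the wild type. LApc carried floxed Apc alleles and a tamoxifen-inducible Cre in the Lgr5 locus, so that recombination starts in intestinal stem cells and their offspring inherit it. LApcL carried floxed Lef1 alleles in addition. WT and LApcL were taken on day 21 and LApc on day 29. Each genotype had 1 mouse and 1 library, so genotype, mouse, library and, for LApc, day cannot be told apart. Nothing marked which cells had recombined, so an enterochromaffin cell of LApc or LApcL may or may not derive from a recombined stem cell.

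Enterochromaffin cells are the serotonin-producing endocrine cells of the gut lining. They hydroxylate tryptophan with Tph1, decarboxylate the product with Ddc, pack serotonin into granules with the vesicular transporter Slc18a1 and release it toward nerve endings and blood vessels after chemical or mechanical stimulation. Many of them also make substance P from Tac1. The other endocrine cells of the small intestine release peptides instead, such as the incretins Gip and Glp1 (from Gcg), cholecystokinin, somatostatin and neurotensin. Like all endocrine cells of the gut they arise from crypt stem cells through a progenitor that expresses Neurog3.

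Tph1 and Chga, 2 of the 4 marker genes, are shown with the 250 bases before their RefSeq transcription start in GRCm38.p6, since they stand for the serotonin and the granin side of the rule. Tph1 lies at chr7:46644641-46672537 on the minus strand and its upstream bases at chr7:46672538-46672787. Chga lies at chr12:102554969-102565028 on the plus strand, with its upstream bases at chr12:102554691-102554940. RefSeq lists 2 starts for Tph1, of which the first was used, and both windows lie outside the annotated gene. Capitals mark TGACGT or its reverse complement ACGTCA, the core of the cAMP response element, searched on both strands.
Tph1: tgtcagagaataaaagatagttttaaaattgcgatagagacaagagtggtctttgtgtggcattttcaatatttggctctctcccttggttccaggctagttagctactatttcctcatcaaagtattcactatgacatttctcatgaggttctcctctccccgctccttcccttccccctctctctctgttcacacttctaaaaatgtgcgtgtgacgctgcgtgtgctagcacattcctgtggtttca
Chga: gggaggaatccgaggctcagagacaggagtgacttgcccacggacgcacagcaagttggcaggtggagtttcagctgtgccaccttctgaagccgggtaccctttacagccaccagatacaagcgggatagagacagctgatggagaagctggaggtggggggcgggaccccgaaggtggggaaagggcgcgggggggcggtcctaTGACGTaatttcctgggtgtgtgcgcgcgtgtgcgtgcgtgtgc
The Chga window held 1 match, at bases 44 to 39 before the start, and the Tph1 window held none. The same 6 letters were found in 6.56% of 27025 promoter windows of this length, and in 805 of the 7314 windows of tested genes. They stood in 9.95% of 201 windows of genes called higher in enterochromaffin cells and in 9.46% of 296 called lower, so the called genes did not carry them more often than the tested genes. A match describes the letters of the window and not a bound site.

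The levels of the rule's own genes describe the cells, and genes outside the rule that bear on the label, among them Slc18a1, Slc18a2 and Lmx1a, are given below. Tph1 stood at 441 CPM (the gene's part of all UMIs summed over the cells, scaled to 1e6) in WT enterochromaffin cells, 1455 in LApc and 650 in LApcL, against 28.6, 81.8 and 43.5 in cells led by Cck, Gip, Ghrl or Sst. Cells led by Gcg, Pyy or Nts had 75.9, 726 and 225 CPM, so the LApc cells of that class carried more Tph1 than the WT enterochromaffin cells. Kept cells under 5 granin UMIs had 1.73, 2.29 and 1.14 CPM. A Tph1 UMI was found in 88.6% of WT, 96.7% of LApc and 88.8% of LApcL enterochromaffin cells, and in 1.96%, 1.37% and 0.975% of cells rich in enterocyte transcripts. Those enterocyte-rich cells had median depths of 8625, 5082 and 6396 UMIs. Tac1 was less uniform, with a UMI in 85.6%, 68.1% and 79.0% of the enterochromaffin cells and levels of 867, 1526 and 855 CPM. The other classes had 42.7 to 95.1 CPM of Tac1. Chga was at 2688, 10750 and 3789 CPM and Chgb at 8858, 15871 and 9190 CPM. Each other hormone of the rule stayed at or under 180 CPM in the enterochromaffin cells, while Gip reached 42402, 106227 and 47550 CPM in its own class.

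The cells stood well inside the granin limit and closer to the hormone limit. For WT, LApc and LApcL their granin sum had medians of 127, 110 and 93 UMIs, with lowest values of 11, 6 and 9. The sum of Tph1 and Tac1 had medians of 10, 9 and 9 UMIs and ran up to 75, 97 and 66. It was exactly 2, the smallest sum allowed, in 4, 9 and 17 cells. Just outside were 1, 8 and 15 endocrine cells whose highest hormone sum was 1, and 7, 10 and 12 cells with a tie. No class was given to 39, 39 and 92 endocrine cells.

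The libraries had been cut at different depths before deposit, which bears on most of what follows. No barcode had fewer UMIs than 5843 (WT), 1759 (LApc) or 2821 (LApcL). Enterochromaffin cells had medians of 10343, 2962 and 7696 UMIs and 2965, 1383 and 2514 genes, against 9984, 6290 and 10476 UMIs in all kept cells. Of the LApc enterochromaffin cells, 156 of 307 had fewer than 3000 UMIs, a depth that no WT barcode could have. The shares and several gene levels below are therefore also given for cells with at least 5843 UMIs in every library, a floor chosen after the data had been seen. This floor left 167, 65 and 135 enterochromaffin cells with medians of 10343, 7592 and 10697 UMIs, so depth was closer but not equal. Barcode sequences were shared by 214 to 318 barcodes between any pair of libraries, and 1 enterochromaffin barcode was shared between WT and LApc. Totals over the enterochromaffin cells were 1924084, 1274642 and 1892123 UMIs. Intervals given in parentheses are exact at the 95% level and reflect counting error alone.

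Within a library, enterochromaffin cells with fewer UMIs held a larger share of granin UMIs. In LApc, cells under 3000 UMIs had 20888 CPM of Chga, and those with more had 6762 CPM. Tph1 behaved alike, with 2787 against 930 CPM, and so did Reg4, a secreted lectin of endocrine and goblet cells, with 46875 against 25316 CPM. Ribosomal protein genes took 12.0% of UMIs in the shallow cells and 22.1% in the others, and the proliferation marker Mki67 stood at 8.34 against 55.8 CPM. The limits on granin and hormone UMIs ask for a higher CPM of a shallow cell than of a deep one, so the rule can bear on Chga and Tph1. No LApc enterochromaffin cell under 3000 UMIs had fewer than 17 granin UMIs, against the limit of 5. How far the rule shaped these differences was not tested.

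**Figure D1:**
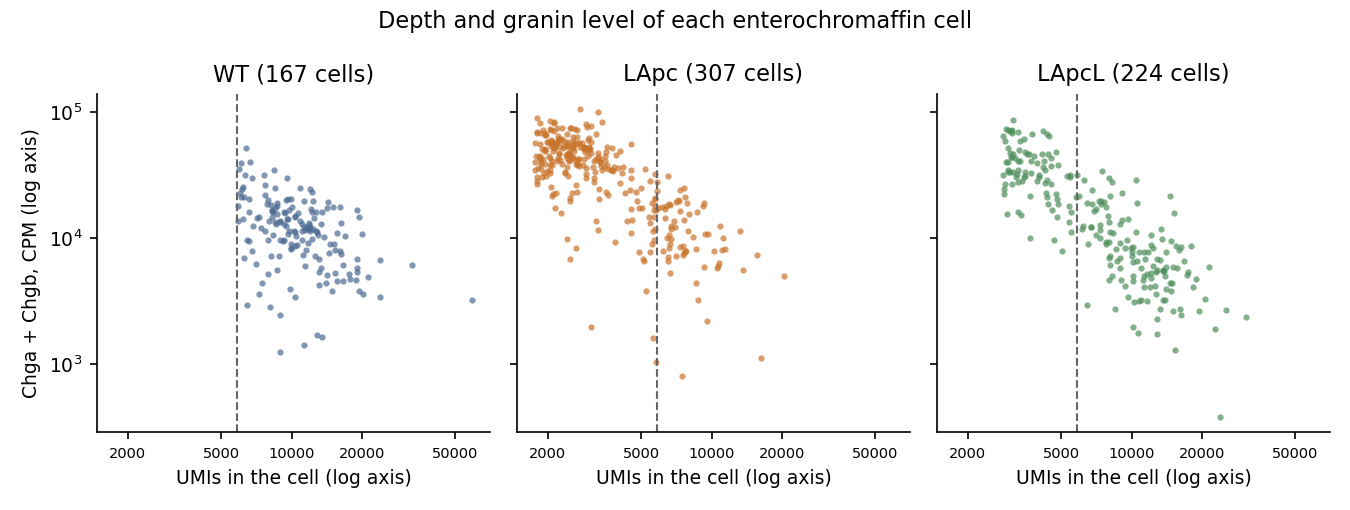
Each point is an enterochromaffin cell of WT, LApc or LApcL, with its UMI total on the horizontal log axis and the CPM of Chga and Chgb together on the vertical log axis. The dashed line is the common floor of 5843 UMIs, left of which lie 242 LApc cells, 89 LApcL cells and no WT cell.

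Enterochromaffin cells made up 1.47% (1.25 to 1.70) of the kept WT cells, against 2.82% (2.52 to 3.15) for LApc and 1.32% (1.15 to 1.503) for LApcL. With the common floor the shares were 1.47%, 1.06% (0.820 to 1.35) and 0.912% (0.765 to 1.08), so that LApc moved from the highest share to between the other libraries. Among the cells given to a hormone class, enterochromaffin cells held 34.0% (29.8 to 38.4) of WT, 48.4% (44.5 to 52.4) of LApc and 52.0% (47.1 to 56.8) of LApcL cells. This order held with the floor, at 34.0%, 43.0% (35.0 to 51.3) and 56.0% (49.5 to 62.4), where the WT and LApc intervals overlapped. When each cell was instead thinned to 3000 UMIs before the rule, the shares were 41.9%, 40.1% and 52.9%, and when thinned to 1500 UMIs they were 55.3%, 59.9% and 55.9%. The order of the 3 libraries was therefore not kept by every way of equalizing depth.

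**Figure D2:**
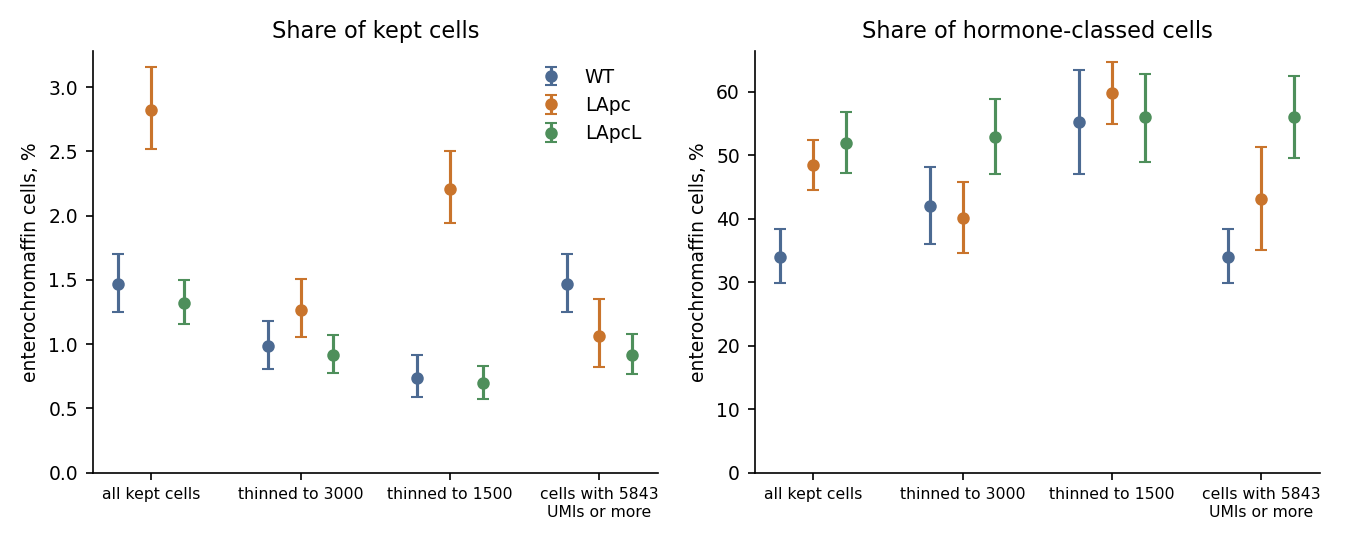
Share of enterochromaffin cells in percent of kept cells (left) and of cells given to a hormone class (right) for WT, LApc and LApcL under 4 treatments of depth, with exact 95% intervals for counting error. The LApc share of kept cells falls from 2.82% to 1.06% when only cells with 5843 UMIs or more are used.

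To see what else set these cells apart, UMIs were summed per library and hormone class, and the enterochromaffin sum was compared with the mean of the other classes within each library by edgeR's quasi-likelihood test with library as a block. The 3 blocks are 3 mice of different genotype. The genes of the rule were left out, but genes that follow them in the same cells were not independent of the choice of cells. Of 9447 genes tested, 264 were higher in enterochromaffin cells (2.79%) and 390 were lower (4.13%) at an adjusted p under 0.05, with a median log2 fold change of 0.01 over all tested genes. These percentages are the background for the counts that follow. Called genes with a mean of at least 50 CPM, mitochondrial and ribosomal protein genes left out, were 88 higher and 153 lower. Of the 88 higher, 83 stood above both other classes in every library. Of the 153 lower, 82 stood below both in every library.

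Several genes of serotonin handling were higher. Of 11 tested genes that are not part of the rule, 5 were higher, none was lower and the median log2 fold change was 0.27. Slc18a1, the vesicular monoamine transporter of endocrine cells, stood at 108, 392 and 190 CPM in WT, LApc and LApcL enterochromaffin cells. Its level was 29.7 to 69.0 CPM in cells led by Cck, Gip, Ghrl or Sst and 38.4, 276 and 86.9 CPM in those led by Gcg, Pyy or Nts, and it rose by 1.39 on the log2 scale (adjusted p = 0.000227). The neuronal form, Slc18a2, was scarcer at 15.1, 34.5 and 18.5 CPM but more exclusive, with a log2 fold change of 2.57 (adjusted p = 3.31e-06). The rise of the enzymes was smaller. Ddc changed by 0.48 (adjusted p = 0.000394), Gch1, which starts the synthesis of the tetrahydrobiopterin cofactor of Tph1, by 0.43 (adjusted p = 0.00148), and Qdpr, which regenerates that cofactor, by 0.60 (adjusted p = 0.000293). Gch1 was not called with the common floor, nor was Ddc. When granins had to take at least 0.5% of a cell's UMIs, Slc18a1, Ddc, Gch1 and Qdpr lost their calls. Slc18a2 kept its call in each of the 10 alternative fits that tested it. Genes of serotonin removal did not pass the test. Maoa was at 136, 95.7 and 34.9 CPM and the serotonin reuptake transporter Slc6a4 at 16.1, 22.8 and 6.87 CPM. The brain form of the hydroxylase, Tph2, had no UMI in any enterochromaffin cell.

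Among other granule proteins and prohormone enzymes more genes were lower than higher. Of 8 tested genes of granins and prohormone processing, 5 were lower, 1 was higher and the median was -1.13. Scg2, the precursor of secretoneurin, was at 2.60, 7.06 and 23.8 CPM in enterochromaffin cells and at 453 to 1235 CPM in the other classes. It was called lower by 6.06 on the log2 scale (adjusted p = 0.0121), but not without the WT or without the LApc library. Cpe, the carboxypeptidase that trims peptide hormones, had 160, 324 and 164 CPM against 451 to 1213 CPM and fell by 1.99 (adjusted p = 4.00e-14). Pam, which amidates peptide ends, fell by 1.08, Scg3 by 1.17 and Scg5, the chaperone of Pcsk2, by 1.21. Pcsk1, the main prohormone convertase of these cells, was the gene that rose, by 0.37 (adjusted p = 0.0393), and it lost its call in each fit that left out 1 library.

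Few peptides beyond the rule were abundant enough to test. Sct, the precursor of secretin, was abundant in enterochromaffin cells at 2731, 7203 and 3267 CPM, yet it was higher still, at 9904 to 33017 CPM, in the other classes and fell by 2.17 (adjusted p = 0.00185). Ucn3, a ligand of the corticotropin-releasing hormone receptor family, rose by 2.54 (adjusted p = 2.42e-11), with 50.9, 180 and 42.8 CPM against 4.58 to 41.6 CPM. Cartpt, the precursor of the cocaine- and amphetamine-regulated peptide, had 42.6, 572 and 268 CPM. It was near absent from WT and LApcL cells led by Cck, Gip, Ghrl or Sst (1.09 and 0.763 CPM) but present in those led by Gcg, Pyy or Nts (6.73, 820 and 426 CPM), and it did not pass the test (adjusted p = 0.123). Of 4 tested peptides, 1 was higher and 1 was lower. Galanin (Gal), gastrin (Gast) and Insl5 had 0 UMIs in the enterochromaffin cells.

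Receptors and channels differed in both directions. Of 13 tested genes of sensing and excitability, 4 were higher and 4 were lower. Trpa1, the channel gated by irritants such as mustard oil, was at 131, 330 and 79.8 CPM in enterochromaffin cells. The other classes had 4.58 to 64.3 CPM, and the log2 fold change was 3.30 (adjusted p = 4.32e-09). Scn3a, a voltage-gated sodium channel, rose by 1.83 (adjusted p = 2.42e-11), from 15.3 to 98.3 CPM in the other classes to 109, 192 and 102 CPM. Ffar2, a receptor for short-chain fatty acids, rose by 0.62 (adjusted p = 0.00623). It lost that call with the common floor, with granins at 0.5% of UMIs and without LApcL. The long-chain fatty acid receptor Ffar1 was at 0.520, 2.35 and 0 CPM, or 4 UMIs over all enterochromaffin cells, whereas the other classes had 40.6 to 208 CPM (adjusted p = 6.60e-16). Ffar4, another receptor for long fatty acids, fell by 2.49 (adjusted p = 1.26e-07). Gpr119, which senses monoacylglycerols, had 1 UMI in all enterochromaffin cells and 8.40 to 34.0 CPM elsewhere (adjusted p = 2.91e-08). Abcc8, the sulphonylurea receptor subunit of the ATP-sensitive potassium channel, fell by 4.64 (adjusted p = 1.54e-10). Of these fatty acid and lipid receptors, Ffar1, Ffar4 and Gpr119 were thus lower in enterochromaffin cells, whereas Ffar2 was called higher. The mechanosensitive channel Piezo2 and the calcium-sensing receptor Casr were too low to be tested.

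Transcription factors of the endocrine lineage also differed in both directions. Of 23 tested factors, 4 were higher and 8 were lower, around a median of -0.09. Lmx1a, a LIM homeobox factor that is needed for Tph1 expression, had 46.8, 154 and 59.2 CPM. It was at 4.58 to 12.1 CPM in cells led by Cck, Gip, Ghrl or Sst and at 5.77, 52.9 and 18.0 CPM in those led by Gcg, Pyy or Nts, and rose by 2.61 (adjusted p = 1.62e-11). Mnx1 rose by 2.08 (adjusted p = 0.000289), Foxa1 by 1.07 (adjusted p = 0.000508), and Fev, a factor of serotonergic neurons, by 0.51 (adjusted p = 0.00668). The call of Fev was lost without LApc, without LApcL and with the common floor. With granins at 0.5% of UMIs the calls of Fev and Foxa1 were lost. On the other side stood Isl1, at 3.64, 1.57 and 2.64 CPM against 88.4 to 300 CPM, with a log2 fold change of -6.04 (adjusted p = 1.57e-17). Etv1 had 5 UMIs over all enterochromaffin cells and 49.3 to 201 CPM elsewhere (adjusted p = 1.86e-14). Pax6, a paired-box factor of endocrine cells, fell by 2.43 (adjusted p = 1.24e-12) and kept 18.5 to 24.3 CPM in the enterochromaffin cells. The calls of Isl1, Etv1 and Pax6 were kept in each of the 11 alternative fits.

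Most of the factors named here that act earlier in the endocrine lineage did not pass the test, which does not show that they are equal between the classes. Neurod1 was at 188, 590 and 280 CPM in enterochromaffin cells and did not pass the test, nor did Neurog3, Pax4, Nkx2-2 or Rfx6. Insm1 was called lower by 0.48 (adjusted p = 0.00269). It lost that call in 5 of 11 alternatives, among them DESeq2, the common floor and the fits that left out LApc or LApcL. Of the factors that mark position along the gut, Onecut3 fell by 2.51 (adjusted p = 4.81e-06), and Cdx1, Cdx2, Gata4, Onecut2 and Pdx1 did not pass the test. Bambi, a decoy receptor of the Tgf-beta and Bmp family, was the Bmp-related gene that fell, by 2.70 (adjusted p = 2.65e-05), among 8 tested. The Bmp targets Id1, Id2 and Id3 did not pass the test. Of 12 tested exocytosis genes 2 were higher, namely Rab3c, a vesicle-bound small GTPase, by 2.59 (adjusted p = 2.72e-14), and the fusion protein Snap25 by 0.99 (adjusted p = 2.08e-05). Snap25 lost its call with granins at 0.5% of UMIs. Cplx2, a complexin that controls fusion, was lower by 0.58 (adjusted p = 0.00110), and not without LApc or with the common floor.

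The largest differences outside the lists named further genes. Afp, the fetal serum protein alpha-fetoprotein, stood at 1228, 2219 and 935 CPM in enterochromaffin cells and at 18.3 to 378 CPM in the other classes. Its log2 fold change was 3.47 (adjusted p = 0.0385), and 8 of 11 alternatives did not call it. Tpbg, a trophoblast glycoprotein that acts on Wnt receptors, rose by 3.14 (adjusted p = 6.60e-16), with 106, 346 and 114 CPM against 3.82 to 71.8 CPM. The glutathione transferase Gstt1 rose by 2.23 (adjusted p = 1.64e-05), the intermediate filament gene Vim by 1.65 (adjusted p = 4.67e-08) and Rgs2, a brake on G protein signalling, by 1.43 (adjusted p = 3.32e-11). Gstt1 lost its call with granins at 0.5% of UMIs. Hbb-bs, a beta-globin gene, also ranked among the highest, but 99.9% of its WT UMIs came from 1 of 167 cells. Among the lower genes, the retinol carrier Rbp4 had 3.12, 9.41 and 3.17 CPM against 358 to 1928 CPM (log2 fold change -7.43, adjusted p = 0.00339), and the calcium-binding Scgn had 5.20, 4.71 and 6.34 CPM against 156 to 252 CPM (-5.31, adjusted p = 5.72e-20). The call of Rbp4 was lost without the WT library. Fabp5, a fatty acid carrier, fell by 4.08 (adjusted p = 0.0288) and lost its call whenever 1 library was left out.

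**Figure D3:**
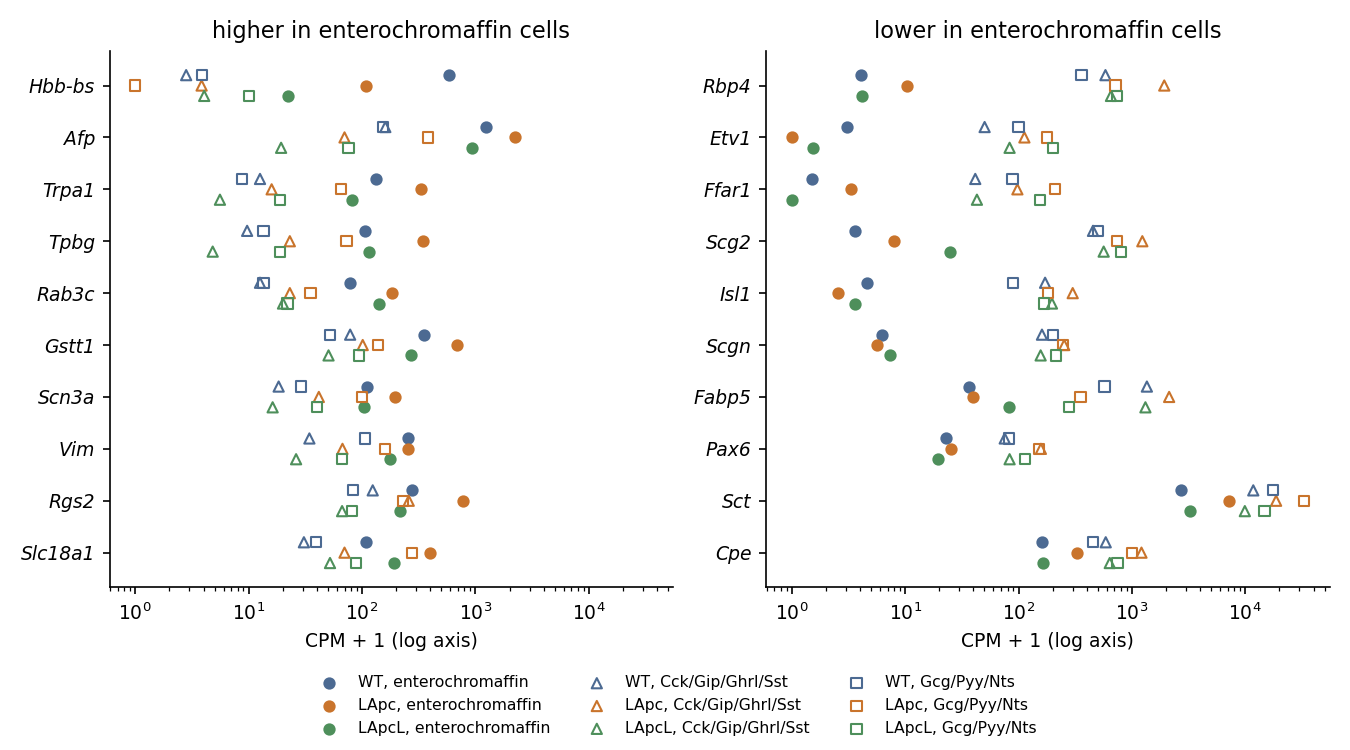
CPM + 1 on a log axis of the 10 genes most raised (left) and the 10 most lowered (right) in enterochromaffin cells, with filled circles for enterochromaffin cells and open triangles and squares for the other hormone classes, coloured by library (WT, LApc, LApcL). The genes were chosen so that in every row each filled circle lies on the same side of both open symbols of its own library.

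Transcripts of abundant secretory and absorptive cells were present in enterochromaffin cells as in all classes. The goblet markers summed to 31454, 22517 and 7346 CPM in enterochromaffin cells and to 51122, 43255 and 9185 CPM in non-endocrine cells. Paneth markers summed to 26732, 2992 and 2163 CPM, against 74826, 14986 and 10314 CPM, and enterocyte markers to 8751, 10905 and 2896 CPM, against 10061, 21464 and 4263 CPM. None of these 3 lists had a marker at 0, and each had 1 gene called lower in enterochromaffin cells (Agr2, Mptx2 and Sis) and none higher. The call of Mptx2, a Paneth lectin, was lost without WT, where its log2 fold change was 0.14. These sums differed between the libraries in the same order in enterochromaffin and non-endocrine cells, and their part in the results was not tested. In 48 WT, 42 LApc and 9 LApcL enterochromaffin cells the goblet markers took over 2% of UMIs, and leaving out every such cell, a choice made after the data had been seen, gave 216 higher and 320 lower genes. Of 6 tested tuft markers 3 were called higher, Dclk1, Trpm5 and Avil, at 5.49 to 30.1 CPM, levels also found in non-endocrine cells, and none of these calls held with the common floor. Immune markers summed to 14.6, 45.5 and 4.76 CPM, and Ptprc, Cd3e and the like left 6, 2 and 7 of 10 at 0. Stromal markers summed to 3.64, 8.63 and 7.93 CPM with 6, 5 and 4 of 7 at 0. Epithelial markers, Epcam among them, summed to 6765, 7085 and 7071 CPM, and none of 6 was called. None of 10 early response genes was called either, and of 5 crypt stem cell markers 1, Slc12a2, was called higher, a call lost in 8 of 11 alternatives.

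The cells were not uniform in Tac1 and Tph1. After each cell had been thinned to 3000 UMIs, which left out 156 LApc and 14 LApcL cells, both genes were seen in 38.3% (30.9 to 46.2) of 167 WT, 45.0% (36.9 to 53.3) of 151 LApc and 45.7% (38.8 to 52.7) of 210 LApcL cells. Tac1 without Tph1 was seen in 29.3% (22.6 to 36.9), 7.95% (4.17 to 13.5) and 21.9% (16.5 to 28.1), lowest in LApc. Tph1 without Tac1 was seen in 22.8% (16.6 to 29.9), 39.7% (31.9 to 48.0), and in LApcL in 42 of 210 cells (14.8% to 26.1%), highest in LApc. Thinned to 1500 UMIs, which kept every cell, Tac1 alone was at 32.9%, 10.4% and 22.8% and Tph1 alone at 23.4%, 36.2% and 21.9%, so the place of LApc held at both depths. Without thinning the shares of Tac1 alone were 11.4%, 3.26% and 11.2%. These states rest on the rule's own genes and on small counts, and are a description.

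Other genes went with the Tac1 state in all 3 libraries. Genes at 100 CPM or more were ranked by their smallest log2 difference over the 3 libraries, and Neurog3 and Reg4 were added after their values had been seen. Vim stood at 375, 492 and 303 CPM in thinned cells with a Tac1 UMI and at 67.9, 65.7 and 98.0 CPM in those without. Hmgn3, a nucleosome-binding protein, had 201, 275 and 162 CPM against 18.5, 32.9 and 78.4 CPM. Gch1, Ddc, Fev and Rab3c were likewise higher with Tac1 in each library, with Gch1 at 198, 388 and 326 CPM against 67.9, 122 and 191 CPM. The cells with Tac1 also held most of the Neurog3 UMIs, at 44.2, 125 and 32.9 CPM against 6.17, 4.69 and 0 CPM. Cells without a Tac1 UMI were higher in Apoc3, an apolipoprotein, with 1191, 1192 and 397 CPM against 322, 588 and 157 CPM, in Ambp, the precursor of alpha-1-microglobulin and bikunin, and in Cartpt, with 98.8, 596 and 461 CPM against 14.7, 275 and 317 CPM. At 1500 UMIs the LApcL difference of Cartpt turned, with 307 CPM without Tac1 and 536 with it. Reg4 was 28895 CPM in WT cells without Tac1 and 4941 CPM in those with it, a log2 difference of -2.54 that was -0.29 in LApc and -0.33 in LApcL, and 0.56 in LApcL when cells were thinned to 1500 UMIs. No test was made of any of these differences, which are between cells of the same library.

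The genotypes were compared gene by gene in the summed enterochromaffin cells, with 5 CPM added to both sides of each log2 ratio. The targeted genes come first. Lef1 had 0 UMIs in WT and LApc enterochromaffin cells and 7 UMIs (3.70 CPM) in LApcL, and Apc had 18.7, 29.0 and 38.1 CPM. Neither was lower where the label names a deletion, and a count made at the transcript end can include a transcript that lacks the floxed exons, so WT, LApc and LApcL mean the libraries so labelled throughout. Of 2731 genes with a mean of at least 50 CPM, 136 were over 2-fold higher in LApc than in WT (4.98%) and 47 over 2-fold lower (1.72%). LApcL against WT gave 68 higher (2.49%) and 120 lower (4.39%), and LApcL against LApc 81 higher (2.97%) and 174 lower (6.37%). The common floor changed the first of these most, to 29 higher and 35 lower, and gave 62 and 145, and 55 and 137, for the others. The share of higher genes among those past 2-fold in LApc against WT was 74.3%, 57.5% with TMM scaling and 45.3% with the floor. For LApcL against WT it was 36.2%, 19.2% with TMM and 30.0% with the floor, and for LApcL against LApc 31.8%, 28.1% and 28.6%. With totals that left out mitochondrial and ribosomal protein genes these shares were 68.7%, 48.4% and 53.4%. The median log2 ratio of all genes was 0.01 for LApc against WT and turned to -0.16 with TMM. For LApcL against WT it was 0.16 and turned to -0.04.

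Of the 2731 genes, 80 (2.93%) stood at least 5-fold above non-endocrine cells by their mean over the 3 libraries. Of these, 50 were over 2-fold higher in LApc than in WT and 3 lower. The 3 lower were the globin genes Hba-a1, Hba-a2 and Hbb-bs, with 99.9% or more of their WT UMIs from 1 cell. The 50 CPM limit is a mean over the compared libraries, so a gene high in LApc alone can pass it. Fabp3, at 17.7, 118 and 24.3 CPM, is an example. These counts are thus set in part by the choice of genes. At the common floor 4 of these 50 genes were still over 2-fold higher, and the log2 ratio was smaller for all 50. The median over the 80 genes was 1.32 over all cells and 0.11 with the floor. Tph1 was 1.71 higher on the log2 scale in LApc than in WT over all cells and 0.32 with the floor (441, 550 and 338 CPM). For Slc18a1 the values were 1.81 and 0.53, for Lmx1a 1.62 and 0.15, for Trpa1 1.29 and 0.08, and for Sct 1.40 and 0.13. Chgb and Tac1 changed sign, from 0.84 to -0.34 and from 0.81 to -0.88. For these genes depth and genotype cannot be told apart, and the floor keeps 65 LApc cells.

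Over all cells, Cartpt was the endocrine gene whose difference from WT was largest in both mutant libraries, whereas with the floor Pcsk1n (1.57) exceeded Cartpt (1.49) in LApcL. WT had 42.6 CPM (33.9 to 52.9), LApc 572 (531 to 615) and LApcL 268 (246 to 293), log2 ratios of 3.599 and 2.52. With the floor it was 42.6, 174 and 129 CPM, still 1.91 and 1.49 higher. A Cartpt UMI was found in 16.8% of WT, 47.6% of LApc and 23.2% of LApcL enterochromaffin cells. In cells led by Gcg, Pyy or Nts the log2 ratios to WT were 6.14 in LApc and 5.20 in LApcL. In cells led by Cck, Gip, Ghrl or Sst they were 2.52 and -0.079, so LApcL did not share the rise there. In non-endocrine cells, where Cartpt was under 1 CPM, they were 0.14 and 0.02. Pcsk1n, the inhibitor of Pcsk1, was at 123, 533 and 705 CPM, and with the floor at 123, 187 and 374 CPM. Scg5 was at 41.6, 169 and 156 CPM, and with the floor at 41.6, 78.0 and 80.5 CPM. Both stayed higher than in WT in the mutant libraries with the floor, though less so.

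LApcL enterochromaffin cells had less of several transcripts than those of LApc, over all cells and with the floor. Reg4 was at 9999, 31403 and 8992 CPM over all cells and at 9999, 15837 and 4566 CPM with the floor. Gpx3, a secreted glutathione peroxidase, was at 325, 970 and 187 CPM, and with the floor at 325, 466 and 100 CPM. Trpa1 was at 50.9 CPM in LApcL with the floor against 131 in WT and 140 in LApc, and Sct at 1463 against 2731 and 2991 CPM. Ambp, Pla2g7, a phospholipase of platelet-activating factor, and Ucn3 lay in the same order. Of the 80 genes that stood 5-fold above non-endocrine cells, 48 were over 2-fold lower in LApcL than in LApc over all cells and 20 with the floor, and none was over 2-fold higher in either. The 48 include the globin gene Hbb-bs. They also include genes that passed the 50 CPM mean mainly through LApc, such as Pla2g7 (33.8, 108 and 14.3 CPM). This count too is therefore set in part by the choice of genes. Vim was lower in both mutants with the floor, at 253, 76.2 and 109 CPM, while over all cells LApc did not differ from WT (253 and 252 CPM).

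**Figure D4:**
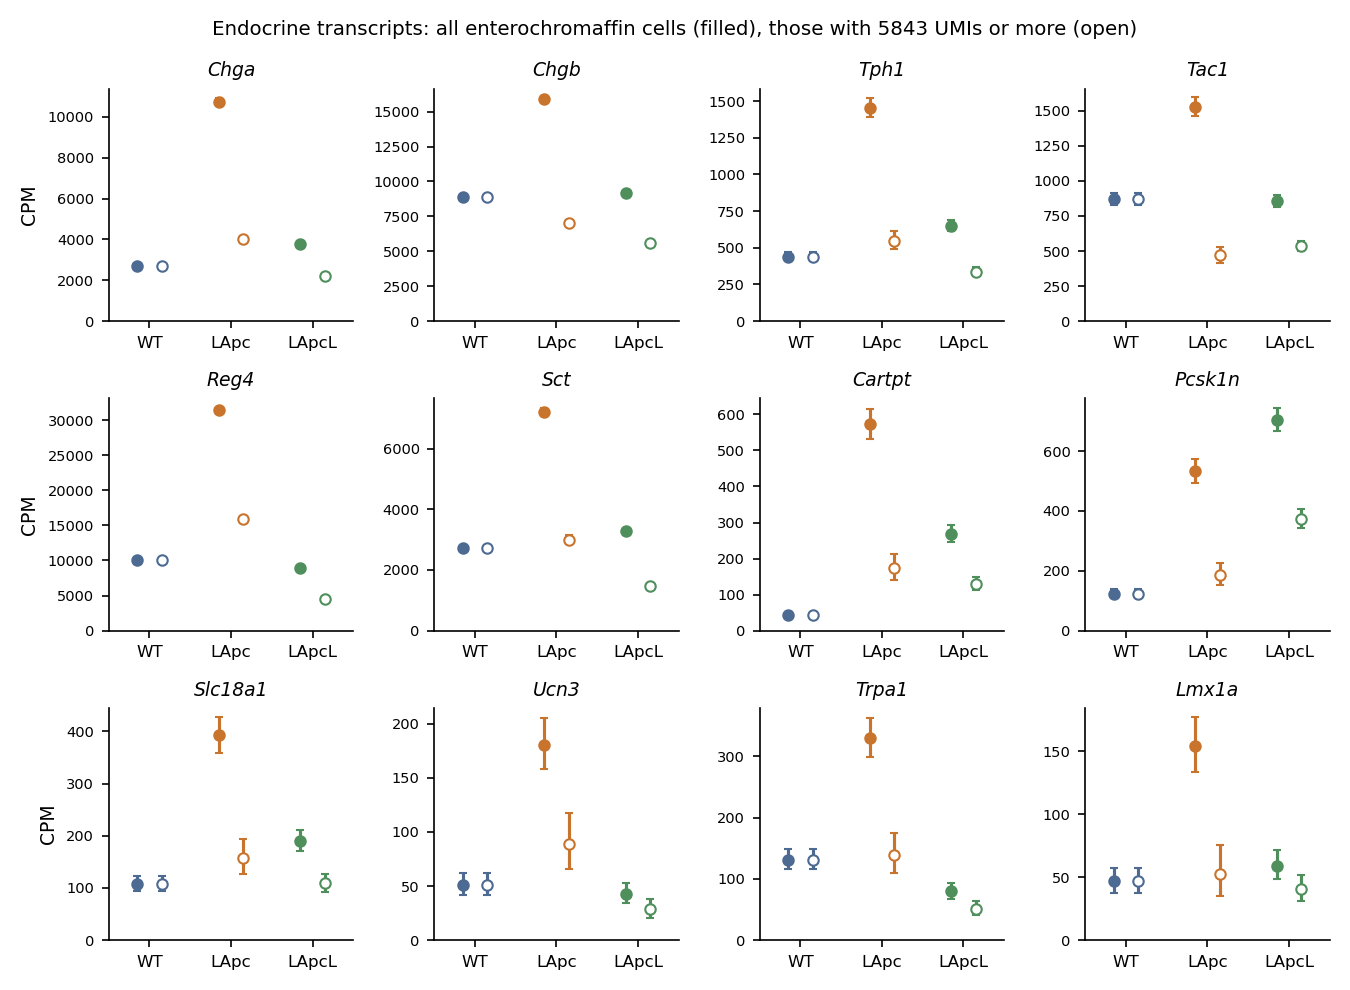
CPM (vertical axis, from 0) of 12 endocrine genes in the enterochromaffin cells of WT, LApc and LApcL, with exact 95% Poisson intervals for counting error. Filled points are all enterochromaffin cells and open points those with 5843 UMIs or more, where for example LApc Tph1 falls from 1455 to 550 CPM and LApcL Pcsk1n stays above the other libraries.

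Some differences were shared with the non-endocrine cells of a library. Of the 188 genes past 2-fold between LApcL and WT enterochromaffin cells, 157 (83.5%) were past 2-fold in the same direction in non-endocrine cells, against 57 of 183 (31.1%) for LApc and WT and 120 of 255 (47.1%) for LApcL and LApc. How many of all 2731 genes passed 2-fold in the non-endocrine cells was not counted, so these percentages have no background beside them. Ifitm1, an interferon-induced membrane protein, had no UMI in WT enterochromaffin cells, 146 CPM in LApc and 507 CPM in LApcL, where a limit of 3 counts in WT makes LApcL at least 325-fold higher. Clu, a secreted chaperone found in regenerating epithelium, was at 0, 95.7 and 205 CPM, with 39.3% of the LApc UMIs from 1 cell. Ifitm3 was at 167, 309 and 1426 CPM, and S100g, a calcium-binding protein of absorptive cells, at 135, 508 and 1117 CPM, with 37.0% of the LApc S100g UMIs from 1 cell. Without the highest Scrublet scores LApc fell below WT for both, at 138 against 179 CPM of Ifitm3 and 95.5 against 145 CPM of S100g, while LApcL stayed above WT. In non-endocrine cells Ifitm1 was at 0.464, 368 and 918 CPM and Clu at 1.63, 323 and 332 CPM, above the enterochromaffin level of each mutant library. The genes most lowered against WT were Paneth defensins such as Defa20, at 5353, 138 and 149 CPM, where 1 WT cell held 63.0% of the UMIs, and alpha-globins, all of whose WT UMIs came from 1 cell. Wfdc18, a whey acidic protein family member, was at 0, 116 and 40.7 CPM, with 41.2% of the LApc UMIs from 1 cell. Gm8730, a predicted gene, was at 150, 1597 and 225 CPM, but reads of near-identical gene copies can be shared out unevenly between them, so its value is uncertain.

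The proliferation and Wnt genes of these cells differed by library as well. Cell cycle genes summed to 1698 CPM in WT, 866 in LApc and 1941 in LApcL enterochromaffin cells, and 5 of 6 genes at 50 CPM were over 2-fold lower in LApc than in WT. Mki67 was at 90.4, 42.4 and 78.7 CPM over all cells, at 90.4, 76.2 and 92.1 CPM with the floor, and at 90.1, 15.5 and 50.1 CPM without the highest Scrublet scores. Against the other classes, Mki67 was the 1 of 14 cell cycle genes called higher (0.53, adjusted p = 0.0153), and not with the floor. Axin2, a feedback target of Wnt signalling, was at 33.3, 43.9 and 135 CPM over all cells and at 33.3, 56.2 and 147 CPM with the floor. Without the highest Scrublet scores it was at 35.5, 26.7 and 121 CPM, so LApc lay below WT. It stood in non-endocrine cells at 30.3, 55.5 and 124 CPM. None of 15 tested Wnt and adenoma genes separated enterochromaffin cells from the other classes.

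A set of 6 transcripts that mark adenoma cells of this model (Sox17, Msx1, Wif1, Notum, Dkk2 and Dkk3) were looked for in cells thinned to 3000 UMIs. The paper reports that adenoma cells of LApcL hold more Sox17 and Msx1 than those of LApc, and less Wif1, Notum, Dkk2 and Dkk3. A share over the 6 together therefore mixes genes that differ by genotype and does not measure adenoma content alike in LApc and LApcL. Msx1 alone stood at 11.8 CPM in LApc and 240 CPM in LApcL enterochromaffin cells before thinning. At least 1 of them was seen in 0.599% of WT, 10.6% (6.18 to 16.6) of LApc and 56.2% (49.2 to 63.0) of LApcL enterochromaffin cells. Among enterocyte-rich cells the shares were 0.128%, 3.02% and 17.4%. Their median depths before thinning were 5546 UMIs in LApc and 6502 in LApcL, against 5657 and 8000 for the enterochromaffin cells. Enterocyte-rich cells can pick up free RNA but may also derive from recombined stem cells, so the part of free RNA was not measured. Cells led by Cck, Gip, Ghrl or Sst had 0.873%, 6.88% and 45.8%, and all other kept cells 0.110%, 13.5% and 62.8%. In LApcL, Msx1, a homeobox factor, was seen in 40.5% (33.8 to 47.4) of enterochromaffin cells and Sox17, an endoderm factor, in 21.9% (16.5 to 28.1), whereas non-endocrine cells had 40.6% and 37.4%. The enterochromaffin share thus equalled that of other cells for Msx1 and lay below it for Sox17.

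Wif1, a secreted Wnt inhibitor, was distributed otherwise than Msx1 and Sox17. It was seen in 6.67% (3.69 to 10.9) of LApcL enterochromaffin cells, 14 of 210, and in 0.178% (0.119 to 0.255) of other LApcL cells. No enterocyte-rich LApcL cell of 533 had it, and cells led by Cck, Gip, Ghrl or Sst had it in 1.31% (0.159 to 4.64) and those led by Gcg, Pyy or Nts in 2.17% (0.0550 to 11.5). In LApc the shares were 3.97% (1.47 to 8.45) and 2.89% (2.56 to 3.25), and in WT 1 of 167 enterochromaffin cells had it. Without thinning, Wif1 stood at 2.08, 21.97 and 12.7 CPM in enterochromaffin cells, from 4, 28 and 24 UMIs. In both mutant libraries it lay mostly in shallow cells, with 31.8 CPM in LApc and 55.9 CPM in LApcL cells under the floor against 9.07 and 3.22 CPM in those above it.

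**Figure D5:**
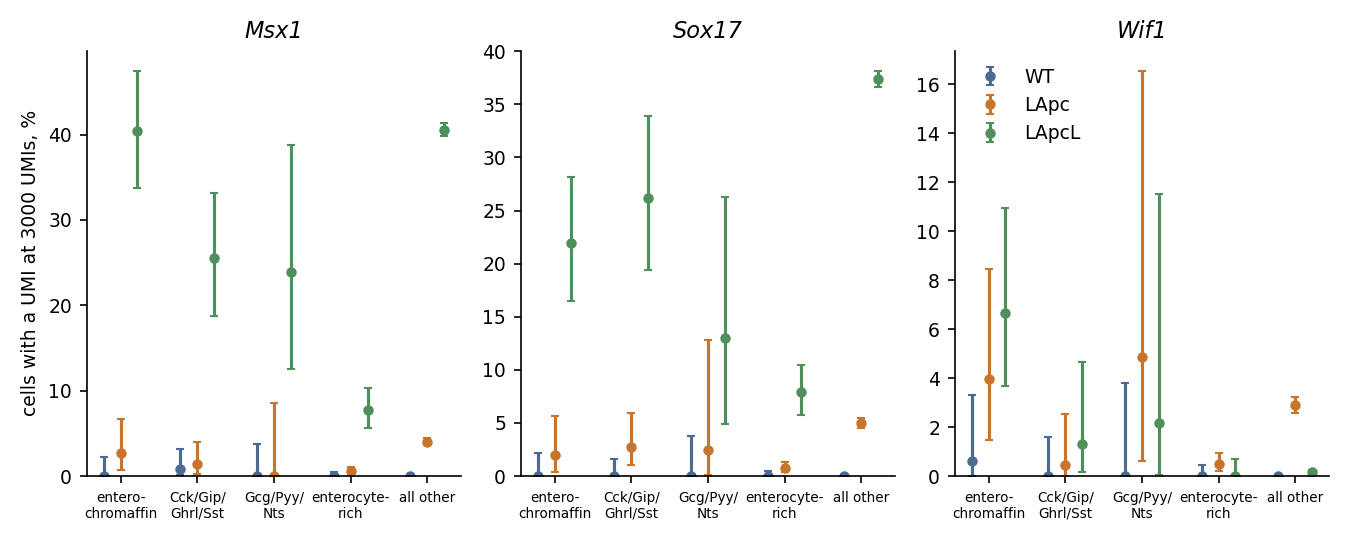
Percent of cells with a UMI of Msx1, Sox17 or Wif1 after thinning to 3000 UMIs, by cell group (horizontal axis) and library, with exact 95% intervals for counting error. In LApcL, Msx1 is as frequent in enterochromaffin cells (40.5%) as in all other cells (40.6%), while Wif1 is seen in 6.67% and 0.178%.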

How the data were processed

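Single-cell 3' RNA libraries of EpCAM+ intestinal epithelium from 1 WT, 1 LApc and 1 LApcL mouse were read from the deposited matrices. The deposited counts are whole UMI counts for 27998 genes per cell barcode, made by the authors with Cell Ranger 2.1.1 on mm10 (GRCm38) per the submitters' processing notes, and filtered to called cells. No matrix column was without a sample. The totals were 140181087, 79696291 and 191509615 UMIs.

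Cells were classed by the stated rule and their counts were summed per library and class. The 9 sums were tested with edgeR 4.0.16 (quasi-likelihood, Benjamini-Hochberg, library as block, R 4.3.3), after a test on simulated data. Every adjusted p in the text comes from that fit. The 3 mice are the replicates of this comparison and differ in genotype. Genotypes have 1 library each and were compared without a test, as CPM with exact Poisson intervals and as shares with exact binomial intervals. Shares of cells with a UMI used counts thinned to 3000 UMIs. Limits of counts of 0 use 3 counts.

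Named were the 10 genes with the largest change in each direction among those called, at 50 CPM or more and on the same side in every library, the 8 with the largest genotype ratio in each direction, and members of the gene lists. The members and lists were chosen with earlier results of these data known. Possible doublets were kept. An alternative left out the highest Scrublet scores (9.16%, 10.6% and 13.9% of barcodes), since the automatic threshold marked 1041, 0 and 1964. It kept 137 of 167 WT, 224 of 307 LApc and 156 of 224 LApcL enterochromaffin cells. A larger part of these cells than of all kept barcodes was thus marked in each library. Other alternatives were DESeq2 1.42.0, TMM, other limits of the rule, leaving out a library, and 4 chosen after the data had been seen (1500 UMIs, a common UMI floor, granins at 0.5% of UMIs, no goblet-rich cells). Positions are from GENCODE M21 and promoters from RefSeq. Python 3.11.15, numpy 2.4.6, pandas 2.3.3, scipy 1.17.1, scanpy 1.11.5 and matplotlib 3.10.9 were used.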

Additional observations from a re-analysis of the deposited data

How the results depend on the processing

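Each genotype is 1 library, depth differs between the libraries, and counts of 65 LApc cells limit every value at the common floor. In the order WT, LApc and LApcL, the share among kept cells was 0.983%, 1.27% and 0.915% after thinning to 3000 UMIs, 0.737%, 2.21% and 0.695% at 1500 UMIs, and 1.23%, 2.40% and 1.05% with a hormone sum of 5. LApc and LApcL had 1.06% and 0.912% with the floor and 2.30% and 1.07% without the highest Scrublet scores. LApc had 3.19% with a mitochondrial limit of 10%, and LApcL 1.07% with granins at 0.5% of UMIs. The share of hormone-classed cells was 41.9% (WT) and 40.1% (LApc) at 3000 UMIs, 55.3% and 59.9% at 1500 UMIs, 43.0% in LApc with the floor, and 77.4%, 72.7% and 74.9% in the 3 libraries with granins at 0.5%.

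Against the other classes, the genes higher and lower numbered 120 and 204 with DESeq2, 133 and 113 with granins at 0.5%, and 95 and 158 with the floor. Without a filter 522 were higher. Without the replicate block for library 13 were higher and 45 lower. The pairing is by mouse. Leaving out 1 library gave 161 to 198 higher and 186 to 268 lower, and 328 (without WT), 362 (without LApc) and 359 (without LApcL) of the 654 called genes were called the same way. Fewer of the 654 were called the same way in other alternatives, with 304 for DESeq2 and 57 without the block. With the floor 230 of the 578 also tested were, and with granins at 0.5% 154 of 460, where 10 changed sign. Gch1 turned to -0.019 and Pcsk1 to -0.19 with granins at 0.5%, and Mptx2 lay between -1.28 and 0.14 when a library was left out, the last without WT.

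For LApc against WT, 286 genes were higher and 86 lower at a mean of 20 CPM, 273 and 116 without the highest Scrublet scores, 29 higher with the floor, 76 lower with TMM and 72 lower with ribosomal and mitochondrial genes left out. For LApcL against WT, 157 were higher and 212 lower at 20 CPM, 39 higher with TMM and 132 higher with those genes left out. For LApcL against LApc the values were 172 and 322 at 20 CPM and 188 higher with those genes left out. With the floor the LApc to WT ratios of Serpina1c, Chgb and Tac1 turned to -0.049, -0.34 and -0.88, the LApcL to WT ratios of Chga, Chgb and Tph1 to -0.27, -0.66 and -0.38, and the LApcL to LApc ratio of Tac1 to 0.18. The LApcL to WT ratio of Chgb was -0.15 with TMM, and that of Tac1 was 0.38 without the highest Scrublet scores, 0.14 with a hormone sum of 5, 0.058 with ribosomal and mitochondrial genes left out and 0.18 with granins at 0.5%.

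Without thinning, Tac1 alone was seen in 11.4%, 3.26% and 11.2% of cells, both genes in 74.3%, 64.8% and 67.9%, and Tph1 alone in 14.4% of WT cells. Both were seen in 22.2% (WT) and 31.7% (LApcL) at 1500 UMIs, and in 55.8% (LApc) and 54.2% (LApcL) without the highest Scrublet scores. An adenoma transcript was seen in 71.9% of LApcL cells without thinning and 39.3% at 1500 UMIs, and in 0 of the WT cells without the highest Scrublet scores. The cause of these changes was not tested.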

Other observations

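Tac1 was also found in cells that the granin limit left out. Among cells with fewer than 5 granin UMIs whose goblet markers took at least 5% of UMIs, Tac1 stood at 57.8 CPM in WT, 20.4 in LApc and 6.35 in LApcL, and 25.1%, 7.17% and 4.35% of 3520, 1912 and 988 cells had a UMI of it. Tph1, the other marker of enterochromaffin cells, was at 2.16, 2.78 and 0.908 CPM in those cells. In enterocyte-rich cells Tac1 was at 5.52, 1.94 and 2.48 CPM. In WT, 330 cells under the granin limit met the hormone limits of the rule, with 1369 UMIs of Tac1 and 18 of Tph1, and 308 of them were goblet-rich. LApc and LApcL had 35 and 18 such cells.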
